A study of Mus musculus with 14 samples.

Results

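The genes followed here, 10 in number, belong to systems that set the width of blood vessels: the nitric oxide synthase gene Nos3, the endothelin genes Edn1, Ednra, Ednrb and Ece1, the angiotensin genes Ace and Agtr1a, and the adrenomedullin genes Adm, Ramp2 and Calcrl. A probe set, the group of oligonucleotides that measures one transcript on an array, was taken where its single gene symbol in the array annotation was one of these 10 genes. Of the 10 genes, 9 had such a probe set, with 17 probe sets among 36701 in all and 9 genes among 15964. Ednra, the endothelin receptor of smooth muscle, had none.

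The RNA came from mouse spleen cells enriched for follicular dendritic cells (FDC-E), the stromal cells that display antigen to B cells in follicles, or depleted of them (FDC-D). Set A held 3 FDC-E and 2 FDC-D arrays, set B held 2 of each, and set C held 3 FDC-E and 2 FDC-D arrays, so 14 arrays in all. No strain, age, treatment or isolation step is given in the sources used here, and nothing says that arrays of a group came from separate animals. P-values therefore measure the spread between these arrays, which may be technical.

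Endothelin-1 is a peptide that constricts vessels. It is cut from a precursor, the last step being made by endothelin-converting enzyme, and it acts on a constricting receptor of smooth muscle (Ednra) or on a receptor that endothelium also carries (Ednrb), through which it can release nitric oxide and be cleared. Adrenomedullin relaxes vessels and binds Calcrl, a receptor that needs a partner protein such as Ramp2 to reach the cell surface. Nitric oxide made by Nos3 in endothelium passes to neighbouring muscle cells and switches on a guanylate cyclase there.

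RefSeq promoter windows (build GRCm38.p6, 250 bases before to 50 bases after the annotated start) were found for 7 of the 10 genes, 11 windows in all. The windows of Edn1, Calcrl and Ednrb are shown, a ligand and both receptors that had a window and a probe set, whose expression differed between the groups. All are printed 5′ to 3′ on the strand of the gene, and capitals mark motif matches on either strand.
Edn1 (chr13:42301226-42301525, + strand): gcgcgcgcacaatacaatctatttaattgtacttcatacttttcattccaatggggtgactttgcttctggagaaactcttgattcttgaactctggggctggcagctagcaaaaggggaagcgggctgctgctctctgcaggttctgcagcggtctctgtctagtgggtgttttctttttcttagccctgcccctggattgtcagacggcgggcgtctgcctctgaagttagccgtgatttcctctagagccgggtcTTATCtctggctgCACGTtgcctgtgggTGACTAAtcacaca
Calcrl (chr2:84425217-84425516, - strand): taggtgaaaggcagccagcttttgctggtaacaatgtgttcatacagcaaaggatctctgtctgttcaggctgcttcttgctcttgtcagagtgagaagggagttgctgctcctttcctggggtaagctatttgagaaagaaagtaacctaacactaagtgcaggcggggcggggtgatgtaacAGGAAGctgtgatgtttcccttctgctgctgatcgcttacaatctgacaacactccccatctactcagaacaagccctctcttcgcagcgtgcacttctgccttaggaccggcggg
Ednrb (chr14:103843652-103843951, - strand): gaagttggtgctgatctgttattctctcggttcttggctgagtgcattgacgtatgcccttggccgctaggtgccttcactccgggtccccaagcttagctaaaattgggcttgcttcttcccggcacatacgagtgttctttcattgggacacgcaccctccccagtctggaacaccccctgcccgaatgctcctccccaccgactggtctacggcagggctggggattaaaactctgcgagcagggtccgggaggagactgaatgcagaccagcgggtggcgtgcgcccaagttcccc

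Searched on both strands were the GATA factor motif GATAA, the AP-1 motif TGANTCA, an AP-1 variant spelled TGACTAA, the ETS factor motif AGGAAG, the hypoxia-inducible factor motif ACGTG and the TATA box motif TATAAA. The AP-1 variant was added after the Edn1 window had been read. In that window the GATA, hypoxia and AP-1 variant motifs followed one another, their first bases at positions 9, 22 and 37 after the annotated start. Of all 32851 windows, 25.4% held the GATA motif, 19.6% the hypoxia motif and 2.3% the AP-1 variant, while 7.8% held the AP-1 motif and 13.6% the TATA box motif. In the Calcrl window an ETS motif began 66 bases before the start, a motif that 35.4% of all windows held. The Ednrb window held none of the 6 motifs. No motif was shared by the 3 windows shown. Among the windows not shown, that of Ednra held the ETS motif 4 times, 1 of the Ace windows held it 2 times with a TATA box motif, and 1 of the Ece1 windows held 2 overlapping matches of the hypoxia motif.

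Most of the genes stood higher in FDC-E. A probe set was tested with limma where it lay above the 40th percentile of its array on at least 2 arrays, and 11 of the 17 probe sets did. Differences are FDC-E minus FDC-D on log2(intensity + pseudocount), the pseudocount being the 20th percentile of the values of the set. On set A, 6 of 7 tested probe sets passed at an adjusted p under 0.05 as higher, against 23.1% of all probe sets tested there. All 4 on set B passed as higher, against 19.4% of all probe sets tested. Neither of the 2 probe sets on set C was bright enough to test, where 9.5% of all tested probe sets were higher. No member probe set fell with limma, and none was lower at an unadjusted p under 0.05. Among all tested probe sets, 17.9% fell on set A, 17% on set B and 8.73% on set C. The smallest p of an exact permutation test of one value is 0.1 on sets A and C and 0.333 on set B. Probe sets of Ednrb and Calcrl on set B passed the brightness filter only through their FDC-E arrays and so had to differ, which leaves 9 tested probe sets free of this. With FDC-E array 2 or 3 of set B left out these 2 were no longer tested, and the count there was 2.  In such bulk RNA, fewer cells of a type and less RNA per cell cannot be told apart.

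**Figure D1:**
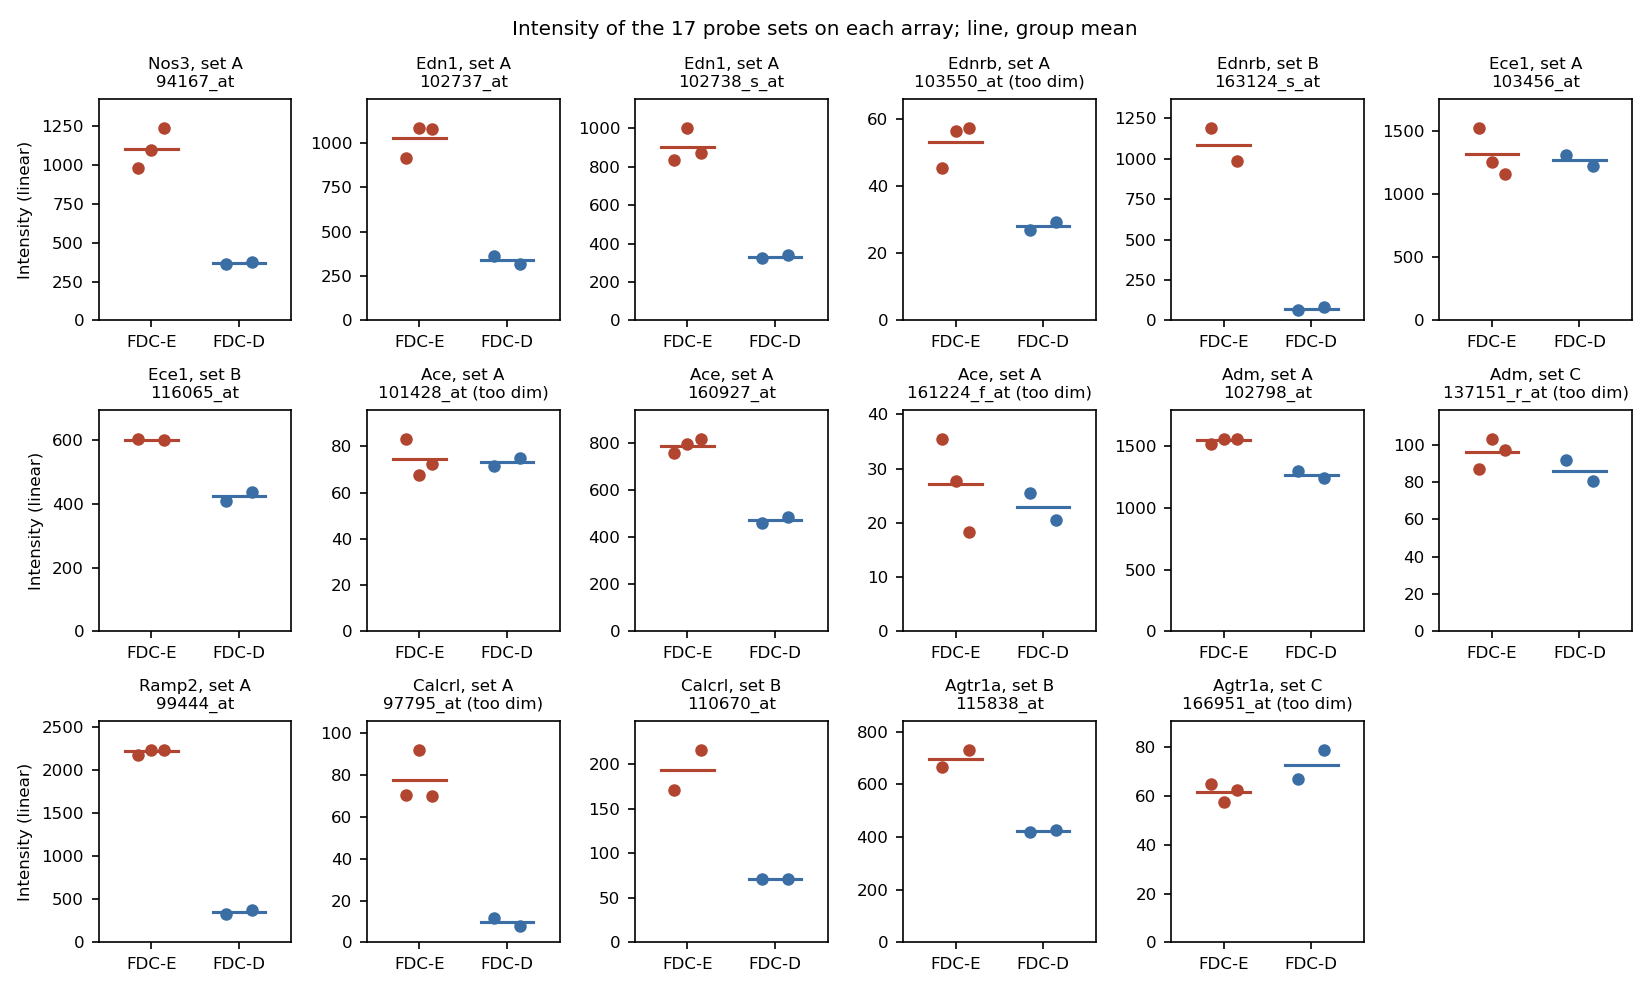
Linear intensity (y axis, each from 0) of all 17 probe sets, 1 point per array, with FDC-E left and FDC-D right and a line at the group mean; "too dim" marks the 6 probe sets that were not tested. FDC-E and FDC-D arrays overlap in 4 panels, and in 1, Agtr1a on set C, the FDC-E arrays lie lower. The share of all probe sets that overlap is not given here, so these counts have no reference.

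Of the ligand genes, Edn1 rose and Adm rose by a small amount that depended on the scaling. Edn1, the endothelin-1 precursor gene, was measured by 2 probe sets on set A. The brighter one read 918, 1086.2 and 1078 on the FDC-E arrays, against 360.9 and 319.9 on the FDC-D arrays. The groups did not overlap, and FDC-E stood 3.02 times as high by the ratio of means. Its log2 difference was 1.38 with a standard error of 0.094 (limma, adjusted p = 9.75e-06). The other one read 834, 1002.4 and 871.3 in FDC-E, against 325 and 339.4 in FDC-D, with a log2 difference of 1.23 ± 0.089 (SE, limma, adjusted p = 1.35e-05). Both probe sets of the gene thus rose by a like amount on the same arrays.

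Adm, the adrenomedullin precursor gene, differed far less. On set A it read 1515.2, 1555.6 and 1554.7 in FDC-E, against 1294.2 and 1235.7 in FDC-D, so that every FDC-E array was higher. The log2 difference was 0.27 ± 0.073 (SE, limma, adjusted p = 0.0187). This call did not hold throughout. It was lost under quantile normalization (adjusted p = 0.0776), with arrays scaled to the median array (0.112) and without FDC-D array 1 (0.102), FDC-D array 2 (0.188) or FDC-E array 3 (0.0621). The log2 difference was 0.20 and 0.17 under those scalings, and 0.30, 0.24 and 0.26 without those arrays. Every FDC-E array of set A had a higher median intensity (264.7 to 279) than either FDC-D array (244 and 250.8), and the part of this offset in the Adm difference was not tested beyond those 2 scalings. The other Adm probe set, on set C, was dim and its groups overlapped, at 87.2, 103.2 and 97.4 in FDC-E and 91.9 and 80.5 in FDC-D.

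Of the processing enzymes, Ace rose and Ece1 rose with 1 of its probe sets. Ece1, the endothelin-converting enzyme gene, gave different pictures with its 2 probe sets. On set B it read 603.6 and 598.5 in FDC-E, against 409.9 and 438.3 in FDC-D, and rose with a log2 difference of 0.43 ± 0.063 (SE, limma, adjusted p = 4e-04). On set A the readings were 1528.2, 1259.2 and 1165.5 in FDC-E and 1312.5 and 1225.9 in FDC-D. Here the groups overlapped, and the log2 difference of 0.04 had a 95% interval of -0.22 to 0.31 (limma, adjusted p = 0.805). That interval lies below the set B estimate, but the difference between the probe sets was not tested because the sets were measured separately. RefSeq gave 4 promoter windows for Ece1, and which transcripts each probe set reads was not analysed here.

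Ace encodes angiotensin-converting enzyme, which makes angiotensin II and breaks down bradykinin. The brightest of its 3 probe sets on set A read 755.2, 793.7 and 817.2 in FDC-E, against 461.3 and 484.9 in FDC-D. All FDC-E arrays were higher, at 1.67 times the FDC-D mean, and the log2 difference was 0.64 ± 0.072 (SE, limma, adjusted p = 0.000178). The other 2 Ace probe sets stayed dim, with means of 74.5 ± 7.92 and 27.2 ± 8.57 in FDC-E (SD, n = 3) and 73.3 ± 2.57 and 23 ± 3.53 in FDC-D (SD, n = 2). In both of them the groups overlapped.

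Among tested probe sets, the largest log2 differences were those of the receptor gene Ednrb and the receptor partner gene Ramp2. The log2 differences of the receptor genes Calcrl and Agtr1a were smaller than those of Edn1 and Nos3. For Calcrl this ranking did not hold throughout by the ratio of means. That ratio was 2.73 on set B but 7.99 on set A, where Calcrl was too dim to test. Ednrb encodes the endothelin B receptor. Its probe set on set B read 1192.2 and 984.2 in FDC-E, against 64.7 and 80.2 in FDC-D, a ratio of means of 15. The log2 difference was 2.92 ± 0.09 (SE, limma, adjusted p = 9.04e-09), smaller than the ratio because the pseudocount weighs on the dim FDC-D values. Another Ednrb probe set, on set A, lay too low to be tested at 45.3, 56.3 and 57.3 in FDC-E and 27 and 29.3 in FDC-D. Its groups did not overlap either, and with no filter its log2 difference was 0.28 (limma, adjusted p = 0.00303).

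Ramp2, the partner that makes Calcrl an adrenomedullin receptor, read 2180.6, 2235.3 and 2231.8 in FDC-E, against 328.7 and 372.5 in FDC-D. It stood 6.32 times as high by the ratio of means, with a log2 difference of 2.39 ± 0.078 (SE, limma, adjusted p = 2.06e-07). The 3 FDC-E readings were close together, and both FDC-D readings lay far below them.

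Calcrl itself was dim. On set B its readings were 171.4 and 216.3 in FDC-E and 70.9 and 70.9 in FDC-D, with a log2 difference of 0.85 ± 0.075 (SE, limma, adjusted p = 1.14e-05). On set A the gene lay below the filter on all arrays, at 70.2, 92 and 70.1 in FDC-E and 11.5 and 7.9 in FDC-D. There too no array of one group reached the other, and with no filter the log2 difference was 0.75 (limma, adjusted p = 3.36e-05). The pseudocount changed the size of the set B difference, from 0.63 with the 40th percentile to 1.25 with values floored in place of a pseudocount.

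Agtr1a encodes a type 1 receptor for angiotensin II. On set B it read 665.2 and 731.5 in FDC-E, against 421.1 and 427.1 in FDC-D, and rose with a log2 difference of 0.62 ± 0.067 (SE, limma, adjusted p = 4.86e-05). A dim probe set on set C ran the other way, at 64.7, 57.4 and 62.3 in FDC-E and 66.7 and 78.8 in FDC-D. With no filter that difference was -0.13 and did not pass (limma, adjusted p = 0.167).

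Nos3, the endothelial nitric oxide synthase gene, read 977.4, 1095.7 and 1237.8 in FDC-E, against 359.6 and 375.8 in FDC-D. All FDC-E arrays were well above both FDC-D arrays, at 3 times their mean. Its log2 difference of 1.38 ± 0.1 (SE, limma, adjusted p = 1.35e-05) was the same size as that of the brighter Edn1 probe set. The ratio of Edn1 to Nos3 within an array shifted by 0.0 on the log2 scale between the groups (exact permutation p = 0.9, two-sided).

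**Figure D2:**
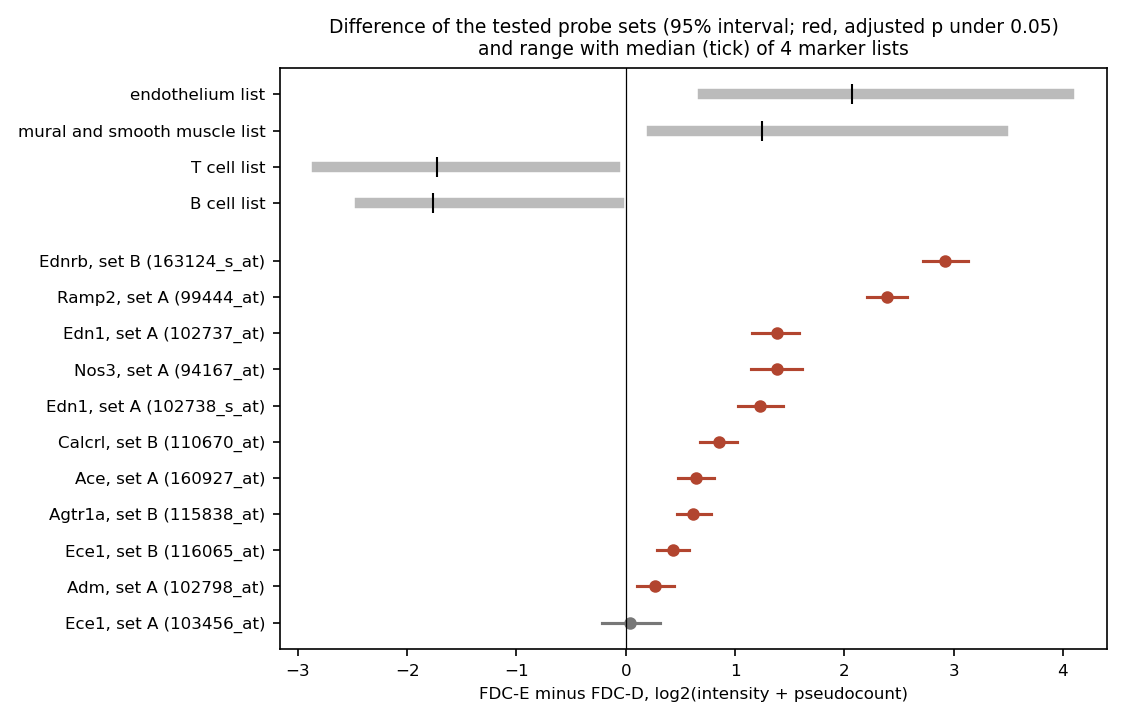
FDC-E minus FDC-D on the log2(intensity + pseudocount) scale (x axis) for the 11 tested probe sets, with 95% intervals, red where the adjusted p was under 0.05. Grey bars give the range and ticks the median of 4 marker lists: endothelium (median 2.07), mural and smooth muscle (1.25), T cell (-1.73) and B cell (-1.76).

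Markers of vessel wall cells moved with these genes, and their part in the differences was not tested. All 17 tested genes of the endothelium list rose, but 7 of them (Cdh5, Cldn5, Emcn, Sox17, Tek, Tie1 and Vwf) passed the brightness filter only through FDC-E arrays and so had to differ. The summed intensity of the 13 genes of the list on set A was 21995 to 24560 in FDC-E, against 3331 to 3553 in FDC-D. That of the 6 on set B was 15523 to 15892 in FDC-E, against 2102 to 2211 in FDC-D. The set A sum includes Cdh5, Cldn5, Emcn, Tek, Tie1 and Vwf, and the part of the filter in that gap was not tested. Tie1, an endothelial receptor kinase gene, averaged 2267 ± 140 in FDC-E (SD, n = 3) and 52.8 ± 1.49 in FDC-D (SD, n = 2). Endothelial pores carry a diaphragm made of Plvap, whose gene averaged 8862 ± 57.8 in FDC-E and 522.4 ± 34.2 in FDC-D (SD, n = 2 each). None of the 17 was at 0 on any array, and the lowest readings were those of Sox17 in FDC-D, at 34.2 and 34.1. All 12 genes of the mural and smooth muscle list rose too, 6 of which (Acta2, Cnn1, Des, Myh11, Myl9 and Pdgfrb) passed the filter only through FDC-E. The 11 genes of this list on set A had a summed intensity of 11730 to 13632 in FDC-E and 3135 to 3261 in FDC-D. Those 6 genes are part of that sum, and the part of the filter in its gap was not tested. Acta2, the smooth muscle actin gene and among those 6, had the largest log2 difference of the list, 3.45.

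Markers of the labelled cell type rose in 9 of 10 tested cases, among them Cxcl13, the chemokine of B cell follicles, at 1358 ± 192 in FDC-E and 32.4 ± 9.11 in FDC-D. Of the tested macrophage genes 10 of 11 rose, and of the reticular fibroblast genes 7 of 8. On the other side, 8 of 9 B cell genes and 9 of 10 T cell genes fell, as did 5 of 7 neutrophil genes, while 2 of 5 erythroid genes rose and none fell. Over all tested probe sets, 23.1%, 19.4% and 9.5% were higher on sets A, B and C, and 17.9%, 17% and 8.73% were lower. The same shares are the reference for the endothelium and the mural and smooth muscle lists. Of the T cell genes Cd28, Cd3d, Cd3g and Il7r passed the filter only through FDC-D arrays, as did Ltf of the neutrophil list, while Cxcl13 and Coch of the FDC list, Marco of the macrophage list and Col3a1, Dcn and Sparc of the fibroblast list passed only through FDC-E arrays. Ednrb on set B and Ramp2 differed by more than the median of the endothelium list. Adm, Ece1, Ace and Agtr1a differed by less than its lowest gene, Sox18 (0.71). That Ednrb probe set and 7 genes behind the median passed the filter only through FDC-E arrays. The dim Ednrb probe set on set A had 0.28 with no filter. These positions are a description, with no test.

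The wider pathway was mixed. From a list of 55 further genes of these systems, 48 had a probe set and 34 were tested. The tested probe set with the highest percentile on its own arrays stood for a gene and is called its brightest. It did not always have the highest intensity. Agtrap was represented on set C, with a mean of 382.3 in FDC-E, against 424.3 on set A. Ecel1 was represented on set C, with 324.2 in FDC-E, against 411.7 on set B. In the limma fits 11 of these 34 rose, 23 missed the threshold and 0 fell, with a median log2 difference of 0.06, against medians of 0.021, 0.001 and 0.016 over all tested probe sets of sets A, B and C. Among all tested probe sets 23.1%, 19.4% and 9.5% were higher on sets A, B and C, and 17.9%, 17% and 8.73% were lower. At an unadjusted p under 0.05, 11 were higher and 1, Pts, was lower. Pts also passed as lower with arrays scaled to the median array. Without FDC-E array 3 the count that rose was 7, and without FDC-E array 2 Nos1 and Pts passed as lower. Of the 11 genes that rose, 5 (Cav1, Ackr3, Gucy1a1, Gucy1b1 and Ddah1) passed the filter only through FDC-E arrays.

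In the nitric oxide branch, Cav1 had the largest rise of the list, with a probe set that passed the filter only through FDC-E arrays. Cav1, which encodes the caveolar protein that binds and restrains Nos3, averaged 2116 ± 166 in FDC-E (SD, n = 3), with readings of 133.5 and 140 in FDC-D, and its log2 difference was 3.29 (limma, adjusted p = 9.36e-08). A second Cav1 probe set on the same arrays was too dim to test. It read 70.4, 50.5 and 73.2 in FDC-E and 51.6 and 59.4 in FDC-D, so that the groups overlapped, with a difference of 0.09 with no filter. Nostrin, whose protein guides Nos3 within the cell, read 850.4, 1025.2 and 973.2 in FDC-E and 587.4 and 606.6 in FDC-D, a log2 difference of 0.62. Spr, which makes the cofactor tetrahydrobiopterin, rose by 0.68 at its brightest probe set and by 0.56 and 1.02 at the others on set C, while a probe set on set A had 0.21 and did not pass. Ddah1, which removes a natural inhibitor of the enzyme, rose by 0.42, and the arginine carrier gene Slc7a1 by 0.29. The Slc7a1 call was lost without FDC-D array 1, and its other probe set, on set A, was too dim to test.

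Other genes of this branch did not pass at their brightest probe set. Their log2 differences were 0.14 for Ddah2, 0.04 for Gchfr, 0.03 for Nosip, -0.03 for Gch1, -0.04 for Slc7a2, -0.13 for the neuronal synthase gene Nos1 and -0.17 for Pts. Nos2, the inducible synthase gene, was too dim to test, at 105.2 to 122.8 in FDC-E and 95.5 and 109.6 in FDC-D. Probe sets disagreed for some of these genes. Another Gch1 probe set, on set A, rose by 0.67 (limma, adjusted p = 0.000463), and another Slc7a2 probe set, on set B, by 0.58 (5.16e-05). A second Gchfr probe set, on set B, rose by 0.28 (0.0026), while another on the same arrays had 0.02 (0.818) and did not pass, and a second Pts probe set fell by 0.40 (0.00481, set A).

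Both subunit genes of the nitric oxide receptor, soluble guanylate cyclase, rose on set B. Their probe sets there passed the filter only through FDC-E arrays and so had to differ. Gucy1a1 read 178.1 and 233.1 in FDC-E, against 14.9 and 11.9 in FDC-D, with a log2 difference of 1.59 (limma, adjusted p = 2.43e-07). Gucy1b1 read 284.6 and 272.9 in FDC-E, against 132.2 and 133 in FDC-D, with a difference of 0.75 (3.08e-06). Their other probe sets were too dim to test. That of Gucy1a1 on set C overlapped between the groups, while that of Gucy1b1 on set A was higher on every FDC-E array. Gucy1a2, an alternative alpha subunit gene, did not pass at -0.14. Pde3a, a phosphodiesterase gene whose enzyme cyclic GMP inhibits, rose by 0.58, and Pde1a had 0.12.

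Within the endothelin branch, the sister ligand gene Edn2 had a log2 difference of 0.06 and Edn3 of 0.16 on set A, and neither passed. Another Edn3 probe set, on set B, read 187.9 and 197.8 in FDC-E, against 114.8 and 113.7 in FDC-D, and rose by 0.49 (limma, adjusted p = 5.5e-05), having passed the filter only through its FDC-E arrays. The related protease genes Ece2 and Ecel1 had 0.02 and 0.04. On the set A arrays the ratio of Edn1 to Edn2 was higher in FDC-E by 1.32, that of Edn1 to Edn3 by 1.22 and that of Edn1 to Ece1 by 1.33 on the log2 scale. Each gave the smallest p that 3 against 2 arrays allow (exact permutation, two-sided p = 0.1), which is 0.117 after adjustment over the 7 ratios compared.

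Among adrenomedullin receptor genes, the other Calcrl partners did not pass the test. Ramp1 read 272.7, 296.2 and 300.3 in FDC-E and 310.4 and 310 in FDC-D, and Ramp3 read 512.3, 485.2 and 534.5 in FDC-E and 507.2 and 568.4 in FDC-D. The Ramp1 readings were lower on every FDC-E array and the Ramp3 groups overlapped. Their log2 differences were -0.08 and -0.06, with 95% intervals of -0.23 to 0.08 and -0.24 to 0.12. The ratio of Ramp2 to Ramp1 was 2.47 higher in FDC-E on the log2 scale, that of Ramp2 to Ramp3 2.46 and that of Ramp2 to Adm 2.12 (exact permutation p = 0.1 each). Ackr3, a receptor gene whose protein takes up adrenomedullin and the chemokine Cxcl12, read 1012.2, 1173.9 and 1241.9 in FDC-E, against 92.5 and 103.8 in FDC-D, a log2 difference of 2.72 (limma, adjusted p = 2.88e-07). Crcp had 0.08, and Calcr and Calcb were too dim to test.

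In the angiotensin branch, Agtrap, which encodes a protein that binds the type 1 receptor, rose by 0.24 on set C, and Atp6ap2, the prorenin receptor gene, by 0.51. Agtrap also rose on sets A and B, by 0.20 and 0.17 (limma, adjusted p = 0.0363 and 0.0467), but with no filter neither passed (0.0562 and 0.0587). The call of the gene was lost without FDC-D array 1, without FDC-E array 3 and with the replicate block. Agt, Mas1, Bdkrb1 and Kng1 lay between -0.09 and 0.13 and did not pass. Enpep, the gene of an aminopeptidase that trims angiotensin II, had 0.05 at its brightest probe set, whereas another on the same arrays read 172.6, 262.8 and 242.6 in FDC-E and 29.8 and 22.3 in FDC-D, a rise of 1.45 (limma, adjusted p = 3.62e-05) in a probe set that passed the filter only through FDC-E arrays. Nppa, a natriuretic peptide gene, and Npr3, the gene of the receptor that clears such peptides, did not pass either, at -0.04 and -0.11.

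**Figure D3:**
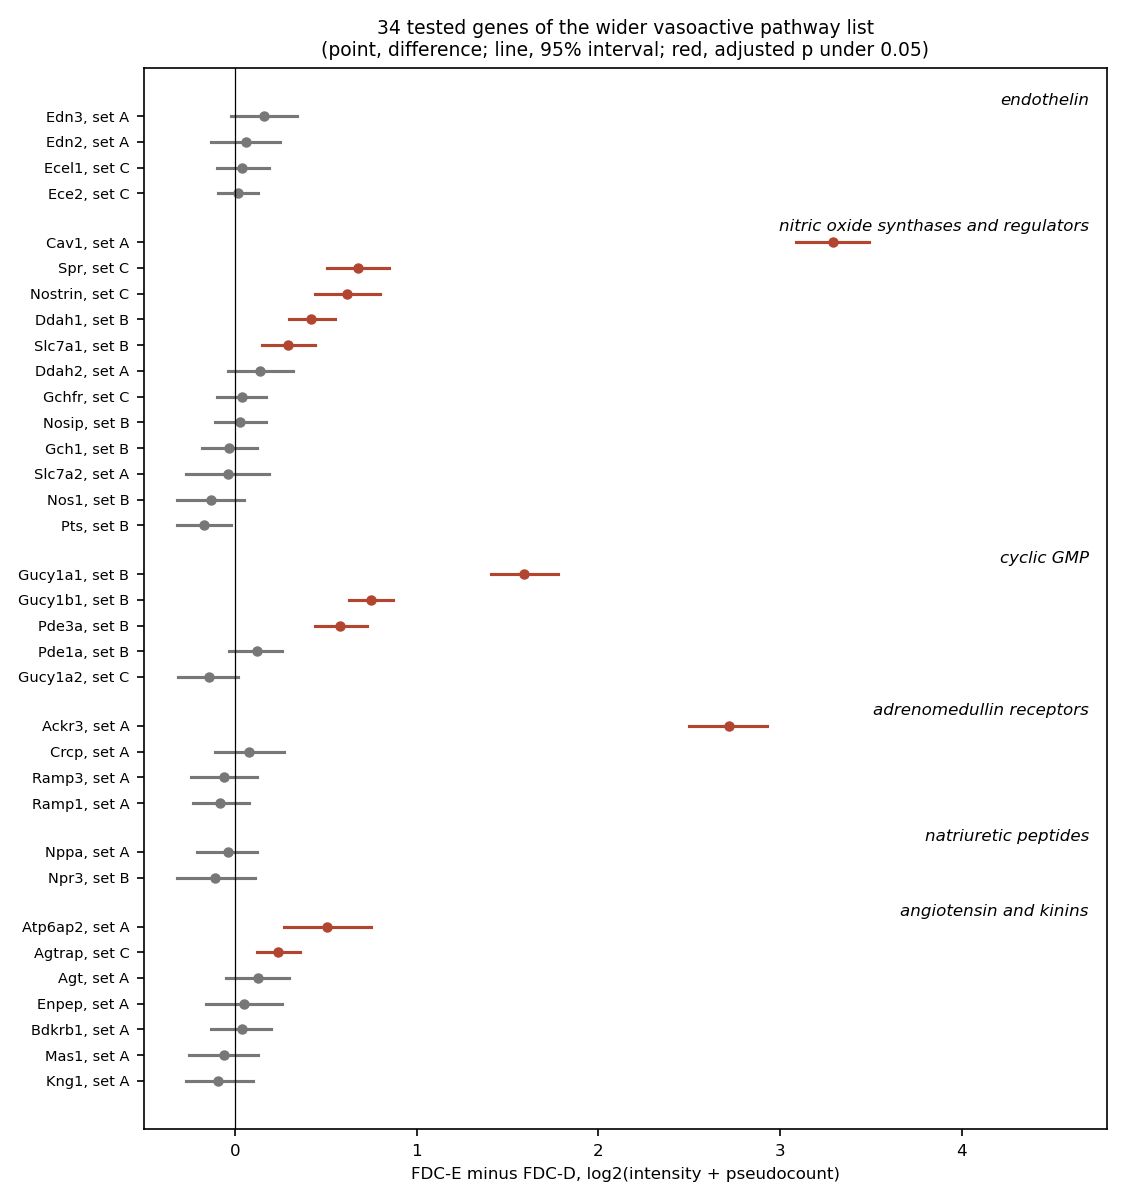
FDC-E minus FDC-D on the log2(intensity + pseudocount) scale (x axis) for the 34 tested genes of the wider list, grouped by branch, with 95% intervals and red where the adjusted p was under 0.05. The 11 red genes run from Agtrap at 0.24 to Cav1 at 3.29.

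The genes most like each vasoactive gene were taken as the 3 tested probe sets with the smallest Euclidean distance between log2 values centred on their own mean, over the 5 arrays of set A or the 4 of set B. Since only a few arrays enter, this mostly finds differences of the same size. Nearest to Nos3 were Epas1, Loxl1 and Fabp7, at distances of 0.07, 0.08 and 0.09. Edn1 lay nearest to Cd81 (0.07), Kctd10 (0.1) and Pttg1ip (0.1). For Ramp2 they were Akap12 (0.06), Nupr1 (0.1) and Cd93 (0.12), and for Ednrb Jag1 (0.15), Mmrn2 (0.17) and Sema3g (0.19). Calcrl was nearest to Dact1 (0.01), Agtr1a to Fam174b (0.01), Ece1 on set B to Tmtc1 (0.01), Ace to Erf (0.05) and Adm to Spef1 (0.03).

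**Figure D4:**
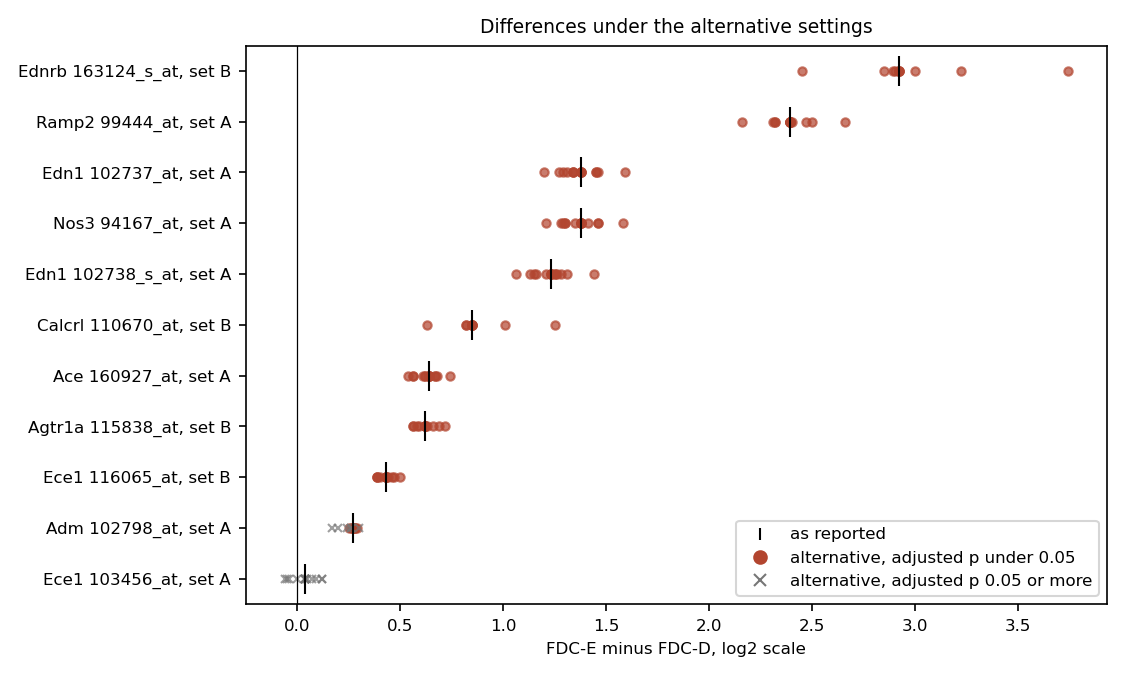
Log2 difference FDC-E minus FDC-D (x axis) of the 11 tested probe sets as reported (black tick) and under each alternative setting that could test them (red points pass at adjusted p under 0.05, grey crosses do not). Crosses occur for Adm and for Ece1 on set A.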

How the data were processed

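For each of the sets A, B and C the authors deposited linear intensity values. Summary method and scaling were not given in the sources used here. Array FDC-E 2 of set A lacked 893 values, none of them of the genes followed. Symbols came from the array annotation and were updated through the Entrez identifier to the RefSeq table of GRCm38.p6. A probe set with more than 1 symbol was left unnamed.

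The deposited scale was kept. Pseudocounts were 88.49, 81.23 and 53.13 on sets A, B and C, whose 7895, 7786 and 7358 tested probe sets were fitted alone (limma 3.58.1, R 4.3.3, lmFit and eBayes with a trended prior, two-sided, Benjamini-Hochberg within the set). The fit was tested on simulated data. Genes were named by a rule: all probe sets of the 10 genes, the called genes and whole endothelin, receptor and synthase branches of the wider list, the 3 nearest probe sets, and up to 4 markers a list. Genes named outside it (Enpep, Pde1a, Gucy1a2, Agt, Mas1, Bdkrb1, Kng1, Nppa, Npr3, Sox18 and markers listed for passing the filter through 1 group) were chosen after their values were seen. The members and lists were chosen with earlier results of these data known. Alternatives covered scaling, pseudocount, floor, filter, prior, adjustment, replicate block and each array left out. The number of arrays limits the precision.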

Additional observations from a re-analysis of the deposited data

How the results depend on the processing

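Over the repeats of single tested probe sets, 142 kept their direction and side of the threshold. Adm lost its call in 6, given for 5 of them above and with adjusted p = 0.102 with the replicate number as a block. Ece1 on set A never passed and turned to -0.04 under quantile normalization and -0.05 scaled to the median array, and ran between -0.06 (without FDC-E 1) and 0.12 (without FDC-E 3) with 1 array left out, at 0 without FDC-D 2. On set A the count of 6 was 5 with the block, under quantile normalization, scaled to the median array and without FDC-E 3. It was 8 with no filter, which tested 11 probe sets there. Leaving out FDC-D 1 or FDC-D 2 keeps 1 FDC-D array on set A, so no count is given for those fits. The Adm difference was then 0.3 and 0.24. With the filter at the 60th percentile the set B count was 3, as Calcrl was not tested. On set B the count of 4 ran from 2 to 4 with 1 array left out, and was 2 without FDC-E 2 or 3, because Ednrb and Calcrl then had 1 bright array and were not tested. No setting called a probe set of these genes on set C. In the wider list 11 genes rose, 16 where the probe set with the smallest adjusted p stood for a gene, 6 with the replicate block, which left out set B, and 7 to 11 with 1 array left out (7 without FDC-E 3). The count of 0 that fell became 1 scaled to the median array, with the replicate block and with the smallest adjusted p (Pts each time), and 0 to 2 with 1 array left out (Gucy1a2 without FDC-D 1, Nos1 and Pts without FDC-E 2). The replicate block could not be fitted on set B, which has no residual degree of freedom with it. With no filter 13 genes of the wider list rose, and 8 with the filter at the 60th percentile. Deviations of same-numbered arrays correlated at 0.033 and 0.061 (set A), 0.15 (set B) and -0.312 and -0.149 (set C). With so few arrays in a group, these values cannot decide whether same-numbered arrays are paired.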
